A study of Mus musculus with 12 samples.

Results

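The transcript make-up of genes was compared between mouse embryonic stem cells (ESCs, R1 line) and the spheroids that the same cells formed after 48 h, as the share that each annotated transcript took of the summed TPM (a unit of transcript abundance scaled for transcript length and library size) of its gene. Genes were taken where the summed TPM was 5 or more in all 8 libraries and at least 2 protein-coding transcripts were annotated, which gave 6285 of 35580 genes and 46964 of 115270 transcripts. The gene with the lowest minimum inside that limit was Xpr1 at 5.0005 TPM, and Tab1 lay just below the limit at 4.99956 TPM. A share describes only how a gene's output was divided. A gene can change its level with no change of share, and a share can change at a constant level.

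The 0 h groups were undifferentiated WT ESCs and Cidea KO ESCs, cultured in serum with LIF (leukaemia inhibitory factor, which holds ESCs in the naive state). The 48 h groups were WT and KO spheroids, grown with growth factor-reduced Matrigel in serum without LIF. The labels call them embedded in the gel, while the study's methods give a culture on top of a Matrigel layer for molecular experiments. Each of these 4 groups had 2 libraries, so 4 libraries stood on each side, and genotype entered the comparison as a covariate. The KO line was a single clone with a CRISPR deletion of Cidea, a lipid droplet protein, in both copies. The 24 h spheroids, also 2 libraries per genotype, were not used in the tests and their values are given beside those of 0 h and 48 h. The study describes the libraries of a group as independent samples and biological replicates. The labels do not say whether they came from separate cultures, and the p-values measure the spread between these libraries.

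Genes make several transcripts by starting at different promoters, by joining or skipping exons, by leaving introns in and by ending at different sites. Transcripts that keep an intron are mostly held in the nucleus or carry early stop codons, so the share of such transcripts is one way in which the output of functional mRNA is set. Cells that leave naive pluripotency and form a polarised epithelium are known to use other splice forms of cytoskeletal, adhesion and chromatin genes. The ESRP, RBFOX, MBNL and SR protein families are among the factors known to control such exons.

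Cidea was at 0.836 to 5.06 TPM in the WT libraries of all 3 time points and was listed at 0 in all KO libraries. The summed TPM of 8 pluripotency markers, with Pou5f1 and Sox2 beside naive markers such as Nanog, was 3434 to 3962 at 0 h and 1687 to 1924 at 48 h. Pou5f1, which is not specific to the naive state, was at 1488 to 1621 TPM and then 1049 to 1310 TPM. Naive Esrrb was at 386 to 471 TPM and then 59.9 to 80.3 TPM, and Klf4 at 176 to 265 TPM and then 8.76 to 11.4 TPM. The summed TPM of 6 epiblast-like markers, such as Otx2, Fgf5 and Dnmt3b, was 73.6 to 113 at 0 h and 723 to 759 at 48 h. The sum of 9 primitive endoderm markers, of which 2 reached 1 TPM in every library at 0 h and 2 at 48 h, was 9.0 to 15.0 TPM at 0 h and 10.8 to 13.6 TPM at 48 h. The sum of 8 fibroblast (feeder) markers was 7.84 to 25.5 TPM at 0 h and 12.3 to 25.4 TPM at 48 h. Most of it was Thy1, at 6.27 to 23.27 TPM and then 9.06 to 23.02 TPM. Postn was at 0 in all 8 libraries, while Dcn went from at most 0.0631 TPM to 0.121 to 1.26 TPM. The sum of 7 trophectoderm markers was 18.4 to 27.5 TPM and 16.2 to 19.9 TPM. Single markers differed in both directions within these sums. Eomes went from 2.96 to 3.6 TPM to 8.42 to 9.46 TPM, and Tfap2c from 13.015 to 22.8 TPM to 3.84 to 6.08 TPM. Among endoderm markers, Dab2 went from 0.935 to 2.22 TPM to 5.55 to 7.54 TPM, and Gata4 from 2.68 to 3.66 TPM to 1.27 to 2.24 TPM. The part of other cell types in the shares was not tested. Library depth was 28998188 to 38509860 estimated counts. In these bulk samples, more cells using one form and a change of form within each cell cannot be told apart.

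Across the 19629 transcripts with a mean share of at least 5%, 9 passed an adjusted p of 0.05 together with a difference of at least 10 percentage points, which was 0.0459% of those tested, 5 of them higher and 4 lower at 48 h. They lay in 8 genes, 0.127% of those tested: Srsf5, Suv39h1, Cds2, Wtap, Pole4, Pacsin2, P3h4 and Glod4. These counts depend on how limma pools the variance. Here the prior variance followed the level of the smaller side of each ratio. With limma's default, where it follows the mean log ratio, 0 of the 9 passed (adjusted p = 0.0731 to 0.144) and 1907 transcripts had an unadjusted p under 0.05. With 1 prior variance for all transcripts 9 passed, of which 6 were among these. In 1360 transcripts (6.93%), the 9 called ones among them, the 4 shares at 48 h did not overlap the 4 at 0 h, and in 711 of them (3.62%) the means also differed by at least 10 points, 339 higher and 372 lower at 48 h. The median absolute difference of mean shares was 4.08 points over all tested transcripts. The median SD over the 4 libraries of a time point, both genotypes together, was 6.31 points. The median difference was thus below the median spread of single libraries. By the fit used here, 2028 transcripts had an unadjusted p under 0.05. For a genotype by time interaction 0 transcripts were called by limma (0%), 1092 had an unadjusted p under 0.05 and the smallest adjusted p was 0.234.

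**Figure D1:**
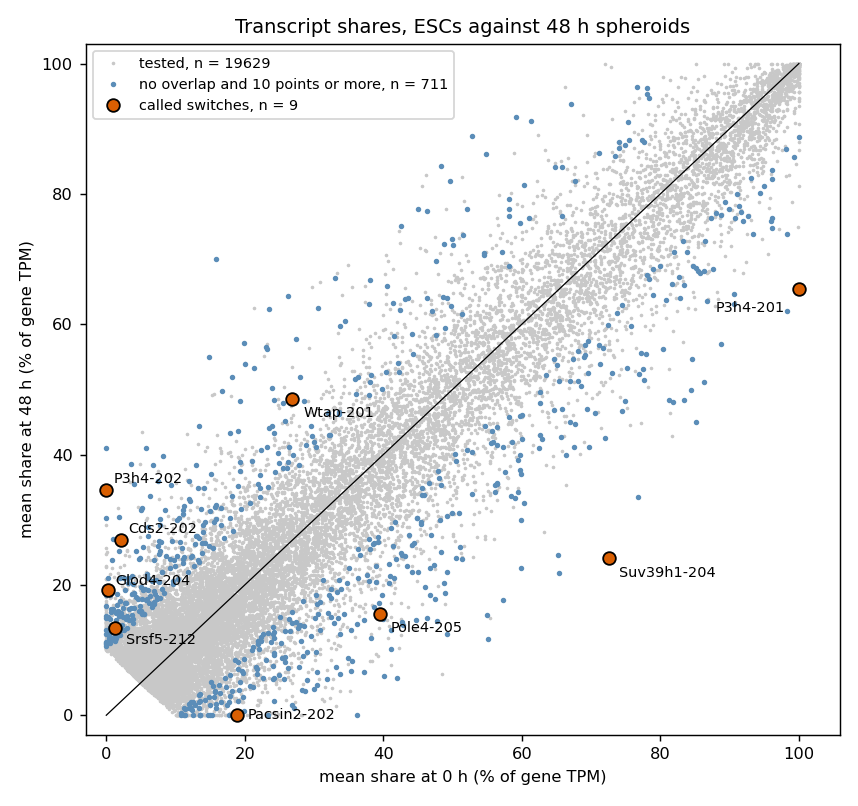
Mean share of each tested transcript in the summed TPM of its gene at 0 h (x axis, percent) and at 48 h (y axis, percent), each the mean of 4 libraries. Most of the 19629 transcripts lay close to the diagonal, the 711 with no overlap and 10 points or more are blue, and the 9 called transcripts are orange and named.

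The transcript with the smallest p was Srsf5-212 (chr12:80945532-80950503, plus strand, GRCm38), a form of the SR protein gene Srsf5 that keeps an intron. SR proteins bind exons and help the splicing machinery to find them, and SR genes are known for forms that retain an intron or a stop-carrying exon and make no protein. The retained stretch was 1229 bases long (chr12:80947866-80949094), lay inside the coding sequence of the coding form Srsf5-201 and began with GT and ended with AG, the usual splice site letters. Both of its edges are shown because reads across them separate Srsf5-212 from the spliced forms, with exon in lower case and the first and last 15 bases of the intron in capitals.
Srsf5 exon to intron: agagtcagctggcagGTTTGTTGAAATACA
Srsf5 intron to exon: TTGTCTTGTGTTAAGgatctcaaagatttc
At 0 h Srsf5-212 took 0.960% and 1.11% of the gene in the WT libraries and 1.45% and 1.40% in the KO libraries. At 48 h it took 10.6% and 13.2% in WT and 15.4% and 14.5% in KO. The time points did not overlap, and the 24 h libraries lay between, at 4.78% and 5.25% in WT and 4.29% and 5.96% in KO. The log2 ratio of this transcript to the rest of the gene was 3.54 ± 0.19 (SE) higher at 48 h, with an adjusted p of 0.000597 by limma (0.144 with the default prior variance). Its estimated count was 256 to 372 at 0 h and 2411 to 4730 at 48 h.

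Among the coding forms of Srsf5, 2 were lower at 48 h without passing. Srsf5-203 took 15.9% to 19.0% at 0 h and 0.196% to 11.5% at 48 h and did not overlap (adjusted p = 0.378, limma), and Srsf5-202 took 18.0% to 22.3% and then 14.9% to 17.3% (adjusted p = 0.354, limma). The leading form, Srsf5-201, took 37.0% to 43.0% at 0 h and 28.6% to 44.5% at 48 h, which overlapped. The gene as a whole was at 475 to 565 TPM at 0 h and 415 to 449 TPM at 48 h.

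Suv39h1 encodes a histone methyltransferase that places H3K9 trimethylation in heterochromatin, and its leading transcript differed between the time points. Suv39h1-204 (chrX:8070429-8074313, minus strand), annotated as a retained-intron form of 3 exons, reads 159 bases past a coding exon and ends there. It took 80.0% and 68.3% of the gene in WT and 66.7% and 75.0% in KO at 0 h, and 23.2% and 23.2% in WT and 30.2% and 19.6% in KO at 48 h. The fall of 48.5 points was the largest of the 9 calls, with a log2 ratio of -2.97 ± 0.35 (SE) and an adjusted p of 0.048 by limma. A full-length coding form, Suv39h1-202 with 1239 coding bases, took at most 5.20% at 0 h. At 48 h Suv39h1-202 took 43.0%, 30.7%, 36.9% and 43.6% in the libraries, and it did not pass the test (adjusted p = 0.0881, limma). Suv39h1-203, a coding form of similar coding length (1236 bases), already took 5.63% to 25.2% at 0 h. Its shares at 48 h were 13.95% to 31.6%, which overlapped those at 0 h (adjusted p = 0.804, limma). Suv39h1-204 is 1166 bases long, beside 2778 for Suv39h1-202 and 3116 for Suv39h1-203. At 0 h Suv39h1-204 had 346 to 386 estimated counts, beside 80.4 to 389 for Suv39h1-203. The size of its lead in share at 0 h thus depended on the length scaling of TPM. At 24 h Suv39h1-204 was at 59.0% to 67.5%, nearer to the 0 h values than to those of 48 h. The gene was at 22.0 to 26.2 TPM at 0 h and 29.3 to 33.7 TPM at 48 h.

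Cds2 encodes a CDP-diacylglycerol synthase, an enzyme on the route from phosphatidic acid to phosphatidylinositol, and a form of it with an upstream first exon rose. Cds2-202 (chr2:132263148-132312050, plus strand) and Cds2-201 differ only in their first exon, and their coding sequences are 1332 and 1281 bases long. Cds2-202 took 1.51% and 3.91% in WT and 1.94% and 1.26% in KO at 0 h, and 28.1% and 29.6% in WT and 29.8% and 20.1% in KO at 48 h (log2 ratio 3.91 ± 0.39, adjusted p = 0.0388, limma). The time points did not overlap. At 24 h the values were 15.4% and 13.5% in WT and 45.2% and 28.1% in KO, where KO replicate 1 stands apart, with 21955 transcripts above 0 TPM beside 27170 to 33929 in the other 11 libraries. Cds2-201 had a mean share of 57.3% ± 4.07 (SD, n = 4) at 0 h and 41.1% ± 5.57 at 48 h and did not pass (adjusted p = 0.256, limma). The gene level was 99.996 to 122 TPM at 0 h and 39.2 to 56.9 TPM at 48 h.

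Wtap, a subunit of the complex that writes N6-methyladenosine on RNA, differed in which form had the highest mean share of TPM. The full-length form Wtap-201 (chr17:12966799-12992259, minus strand, 1188 coding bases) took 23.8% and 28.5% in WT and 26.3% and 28.8% in KO at 0 h, and 47.6%, 47.5%, 49.8% and 49.5% at 48 h (log2 ratio 1.36 ± 0.16, adjusted p = 0.048, limma). The time points did not overlap in Wtap-201. Wtap-209, a fragment with an open 3′ end that starts at the upstream site, went from 28.4% to 41.2% at 0 h to between 0% and 15.3% at 48 h, without passing (adjusted p = 0.219, limma). The shorter coding form Wtap-205 had a mean of 27.9% at 0 h and 38.4% at 48 h (adjusted p = 0.285, limma). Wtap-209 is 446 bases long and had 326 to 596 estimated counts at 0 h, beside 2504 to 3131 for Wtap-205. The lead of Wtap-209 in share at 0 h thus depended on the length scaling of TPM. Wtap itself was at 197 to 239 TPM at 0 h and 82.9 to 98.1 TPM at 48 h, and the estimated count of Wtap-201 was 1977 to 2356 and then 1604 to 2240.

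Pole4, a small subunit of DNA polymerase epsilon, held a noncoding form with a distant start. Pole4-205 (chr6:82618992-82705365, minus strand) took 43.8% and 35.2% in WT and 37.1% and 41.9% in KO at 0 h, and 17.9%, 17.5%, 12.6% and 14.3% at 48 h (log2 ratio -1.81 ± 0.20, adjusted p = 0.048, limma). It fell while the coding form Pole4-201 had means of 20.7% and then 32.6% (adjusted p = 0.234, limma). The form with the highest mean share of TPM was noncoding at 0 h and coding at 48 h. Pole4-205 is 457 bases long and Pole4-201 1769. At 0 h they had 315 to 402 and 985 to 1097 estimated counts, so the lead of Pole4-205 depended on the length scaling of TPM. In Pacsin2, which bends membranes during endocytosis, Pacsin2-202 (chr15:83376118-83432815, minus strand) fell. Its shares were 10.6%, 20.1%, 22.8% and 21.9% at 0 h, and it was listed at 0 in all 4 libraries at 48 h (adjusted p = 0.048, limma). Pacsin2-210, with 1458 coding bases, took 49.8% to 57.1% and then 61.1% to 74.5% (adjusted p = 0.307, limma). Both forms have the same coding sequence and differ in the first exon and the last base positions.

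Of the called transcripts, 2 are short annotated fragments with both ends open. P3h4-202 (chr11:100409366-100411874, minus strand, 309 bases) was listed at 0 in every 0 h library and took 39.1% and 32.9% in WT and 25.5% and 40.6% in KO at 48 h (adjusted p = 0.048, limma). P3h4-201 took the rest in each library, so these are 1 measurement and not 2. P3h4 belongs to the complex that modifies collagen lysines. Since TPM divides by length, the 48 h shares of P3h4-202 rest on 44.8 to 76.1 estimated counts, beside 1529 to 2074 for P3h4-201, and the gene was at 11.7 to 14.2 TPM at 0 h and 46.7 to 66.7 TPM at 48 h. Glod4-204 (chr11:76237713-76243638, minus strand, 293 bases) took 0.900% in 1 WT library and was listed at 0 in the other 0 h libraries, and took 18.1%, 30.0%, 16.0% and 12.5% at 48 h (adjusted p = 0.0388, limma), on 22.3 to 71.6 estimated counts. Fragments with an open end made up 16.7% of all tested transcripts.

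**Figure D2:**
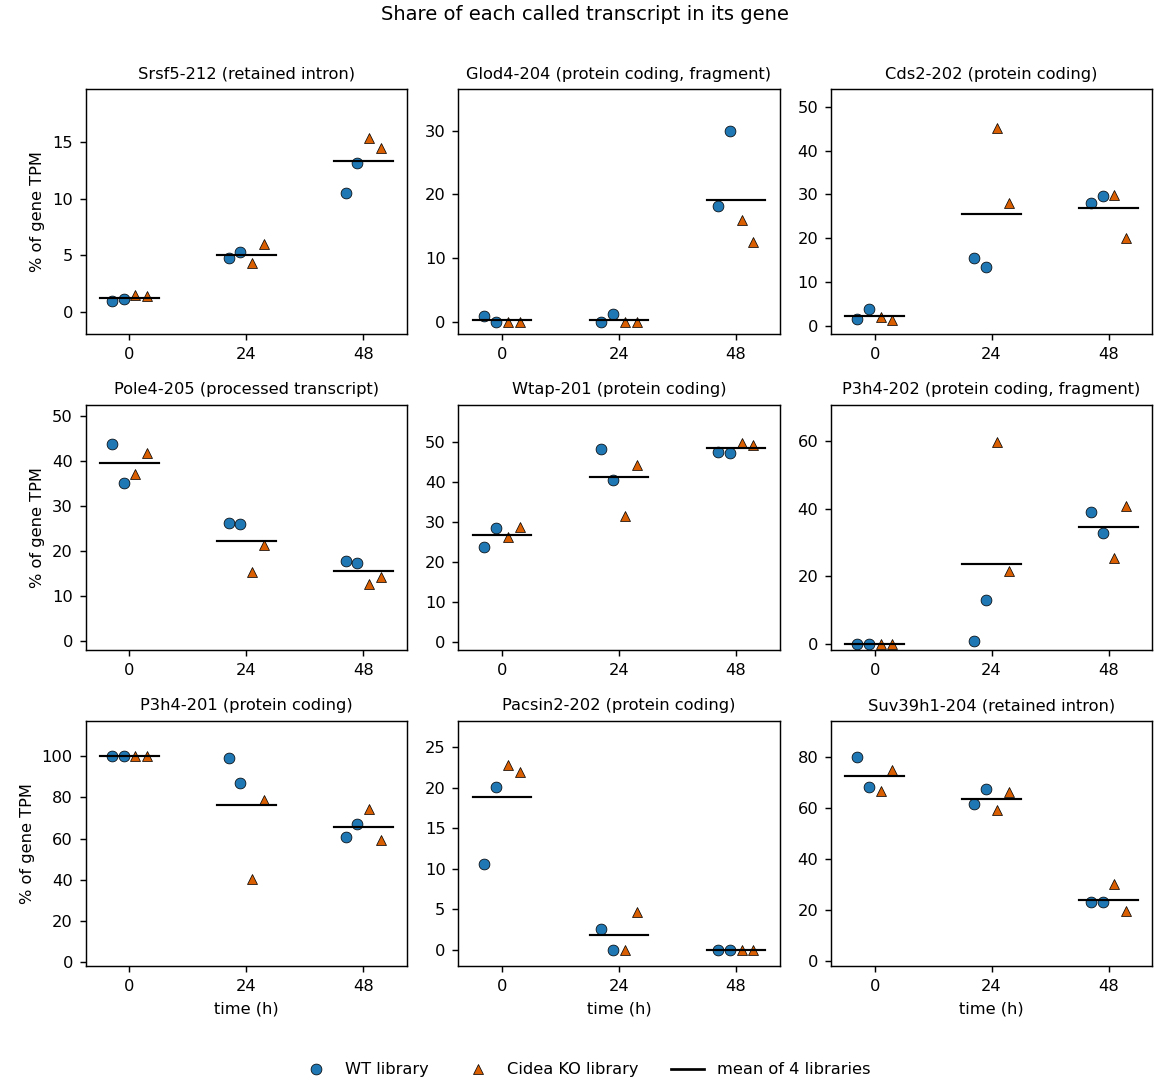
Share of each of the 9 called transcripts in the summed TPM of its gene (y axis, percent) against time in hours (x axis). Circles are WT and triangles Cidea KO libraries, a line marks the mean of 4 libraries, and the y scale differs between panels. Srsf5-212 lay between 0.960% and 1.45% at 0 h and between 10.6% and 15.4% at 48 h, and in Cds2-202 and P3h4-202 the highest 24 h value was KO replicate 1.

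The other 8 calls rest on all 8 libraries. With any 1 library left out Srsf5-212 was the only call (adjusted p = 0.00397 to 0.0134, limma), and with a pseudocount of 1 TPM in place of 0.5 there were 3. By edgeR's diffSpliceDGE on rounded estimated counts, 18 transcripts passed, among them 3 of the 9, Srsf5-212, Cds2-202 and Pacsin2-202. Among the others that edgeR called were Enah-202, Enah-203, Kdm2b-202, Phc1-211 (a Polycomb subunit, 2.24% at 0 h and 12% at 48 h), Ddx5-208 (an RNA helicase, 11.4% and 18.2%) and Fn1-203 (fibronectin, 7.34% and 2.90%).

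Cassette exons were read next: coding or noncoding exons that some transcripts of a gene include and others skip, with inclusion as the percent of TPM in the including forms. Of 5961 exon events 1 was called, 0.0168%, and 212 (3.56%) did not overlap and differed by 10 points or more, 92 higher and 120 lower at 48 h. At an unadjusted p under 0.05 there were 550. The called exon lies in Enah, which encodes Mena, an actin regulator that speeds filament growth at cell edges and junctions. The exon is 63 bases long (21 codons, chr1:181911597-181911659, minus strand) and is carried by Enah-202 only. Inclusion of such a short exon in Enah is known from epithelial cells, where ESRP proteins promote it. The Enah exon and 4 others, from genes of adhesion and chromatin that are described below, are shown in capitals, each with 15 bases of the neighbouring exons in lower case as joined in an including GENCODE M21 transcript.
Enah, 63 bases: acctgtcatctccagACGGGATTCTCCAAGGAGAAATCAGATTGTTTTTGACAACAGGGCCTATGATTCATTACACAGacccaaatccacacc
Dnmt3b, 189 bases: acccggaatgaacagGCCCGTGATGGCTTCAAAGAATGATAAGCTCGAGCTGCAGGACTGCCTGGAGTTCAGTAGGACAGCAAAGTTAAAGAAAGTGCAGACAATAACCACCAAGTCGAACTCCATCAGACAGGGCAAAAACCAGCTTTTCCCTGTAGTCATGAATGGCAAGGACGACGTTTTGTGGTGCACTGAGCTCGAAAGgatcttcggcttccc
Agrn, 24 bases: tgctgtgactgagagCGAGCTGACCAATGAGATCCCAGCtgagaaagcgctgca
Ehmt2, 102 bases: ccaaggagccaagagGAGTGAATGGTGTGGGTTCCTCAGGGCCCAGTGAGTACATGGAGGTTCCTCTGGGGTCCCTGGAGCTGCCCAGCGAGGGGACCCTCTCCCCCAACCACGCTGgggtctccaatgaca
Ctnnd1, 18 bases: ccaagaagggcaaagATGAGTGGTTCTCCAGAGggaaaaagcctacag

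The Enah exon was included at 19.7% and 22.0% in WT and 27.3% and 24.9% in KO at 0 h, and at 47.6% and 40.2% in WT and 49.7% and 47.8% in KO at 48 h. The time points did not overlap, and the 24 h libraries, at 25.9% to 36.5%, overlapped the 0 h range at its top. Inclusion rose by 22.9 points, with a log2 ratio of 1.49 ± 0.15 (SE) and an adjusted p of 0.0198 by limma. The adjusted p was 0.0505 to 0.161 with any 1 library left out and 0.31 with the default prior variance, under which 0 exons were called by limma and 538 had an unadjusted p under 0.05. A second Enah exon, 843 bases long (chr1:181921658-181922500), was included at 29.1% to 37.2% at 0 h and 56.1% to 71.9% at 48 h and did not pass (adjusted p = 0.0677, limma). The forms that include or skip this second exon held only 40.2 to 78.8 TPM, a minor part of the gene. Enah-210 was the only form that skips it. Of the transcripts, Enah-202 had means of 16.5% and 31.8%, and Enah-203, which lacks the short exon, 22.9% and 8.70%. The gene level was 306 to 390 TPM at 0 h and 294 to 305 TPM at 48 h.

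Dnmt3b, which adds new DNA methylation and was at 35.0 to 40.9 TPM at 0 h and 430 to 451 TPM at 48 h, has 2 neighbouring exons (chr2:153683608-153683677 and chr2:153684359-153684477, plus strand) that are kept or skipped together. Forms without this stretch of the catalytic domain are known to lack methyltransferase activity. Inclusion was 56.6% and 49.95% in WT and 48.5% and 64.1% in KO at 0 h, and 77.5% and 79.3% in WT and 73.2% and 71.5% in KO at 48 h. The ranges did not overlap, with means of 54.8% ± 7.16 (SD, n = 4) and 75.4% ± 3.6, and the adjusted p was 0.217 by limma. Among whole transcripts the skipping form Dnmt3b-208 had means of 40.8% and 23.1% and the including form Dnmt3b-202 of 4.28% and 25.2%, neither passing the test (adjusted p = 0.182 and 0.234, limma).

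Other coding exons with no overlap are described for adhesion and cytoskeletal genes, chromatin genes and a few genes outside the lists, and none of them passed the test. Agrn encodes agrin, a basement membrane proteoglycan, and its 24-base exon (chr4:156168546-156168569, minus strand) encodes the insert at the Z site that is known from nerve-derived agrin. It was included at 17.6%, 16.9%, 16.6% and 13.4% at 0 h and 34.3%, 30.9%, 41.3% and 23.0% at 48 h (adjusted p = 0.344, limma). Ctnnd1 encodes p120-catenin, which stabilises cadherins, and its 18-base exon (chr2:84612532-84612549, minus strand) was at 57.5%, 62.0%, 72.2% and 66.1% at 0 h and 31.9%, 55.9%, 42.4% and 57% at 48 h (adjusted p = 0.449, limma). In Ctnnd1 the highest 48 h library lay just below the lowest at 0 h. In Macf1, a linker of actin and microtubules, a 63-base exon went from 94.7% to 100% at 0 h to 66.9% to 85.1% at 48 h, and in Dlg1, a scaffold of the basolateral membrane, a 99-base exon went from 62.3% to 71.7% to 41.3% to 59.3%. Forms that include or skip the Macf1 exon held 12.9 to 29.6 TPM, in a gene at 40.9 to 67.0 TPM.

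Among chromatin genes, Ehmt2 encodes the H3K9 methyltransferase G9a, and its 102-base exon (chr17:34905610-34905711, plus strand) was included at 68.3%, 77.4%, 60.4% and 61.6% at 0 h and 40.4%, 36.2%, 46.1% and 55.8% at 48 h (adjusted p = 0.368, limma). In its partner gene Ehmt1 a 144-base exon was at 69.9% to 74.6% at 0 h and 55.8% to 65.5% at 48 h (adjusted p = 0.506, limma). Inclusion was lower at 48 h in both genes of this enzyme pair, and neither exon was called. Outside the fixed gene lists, and chosen after their values were seen, Wbp2 (a WW domain binding coactivator) had a 135-base exon at 93.8% to 98.2% and then 83.2% to 86.4%, Lsm14b (an RNA granule protein) a 78-base exon at 81.2% to 92.5% and then 58.3% to 74.6%, and Rtn4 the 2361-base exon that separates Nogo-A from Nogo-B at 44.3% to 50.2% and then 53.4% to 65.5%. Their adjusted p-values were 0.0677, 0.0677 and 0.256 by limma.

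**Figure D3:**
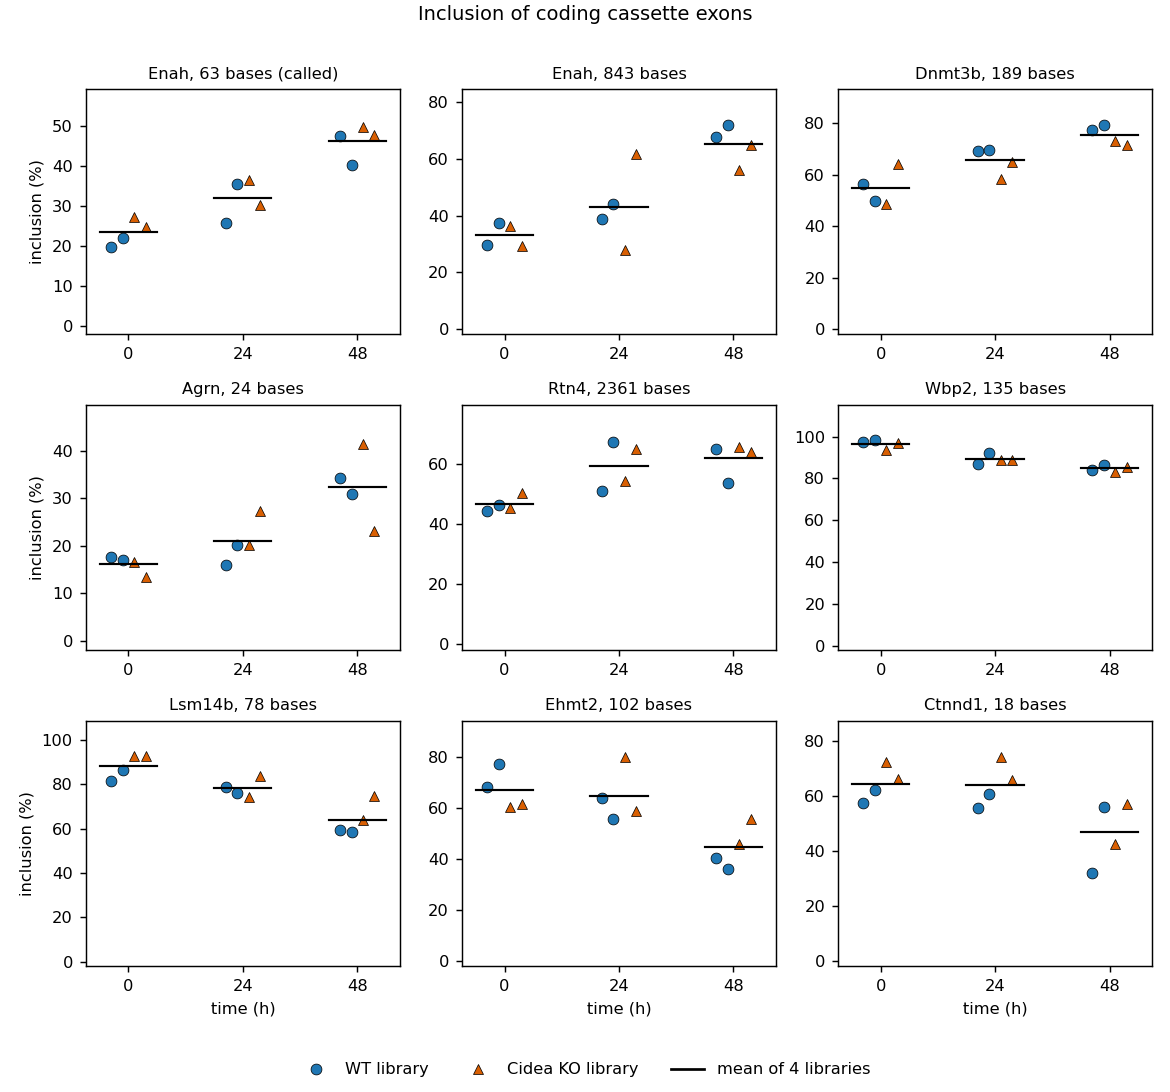
Inclusion of 9 coding cassette exon events (y axis, percent of the TPM in forms that include or skip them) against time in hours (x axis), with circles for WT libraries, triangles for Cidea KO libraries and lines for means of 4. The Enah exon of 63 bases went from 19.7% to 27.3% at 0 h to 40.2% to 49.7% at 48 h and was the only one called.

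Start sites were compared by joining transcripts of a gene whose first bases lay within 250 bases of each other. Of 10662 start groups 4 were called, 0.0375%, and 411 (3.85%) did not overlap and differed by 10 points or more, 191 higher and 220 lower. At an unadjusted p under 0.05 there were 1164. The P3h4 and Pole4 groups hold 1 transcript each and repeat the values above. The P3h4 groups are complements and so 1 measurement. P3h4-202 has an open upstream end, so its first base need not be a start site. The remaining call was in Tmem39a, a membrane protein of the endoplasmic reticulum. Its second start (chr16:38562812-38562886, plus strand), about which several forms begin, took 10.9%, 7.71%, 8.54% and 6.29% at 0 h and 30.2%, 26.0%, 28.4% and 32.7% at 48 h (log2 ratio 2.18 ± 0.25, adjusted p = 0.0499, limma). The 24 h libraries were already at 26.3% to 28.3%, as at 48 h. Of the forms that begin there, Tmem39a-208, noncoding and 513 bases long, had means of 0.294% at 0 h and 15.0% at 48 h. It rested on 48.0 to 160 estimated counts at 48 h. Tmem39a-205, an open-ended fragment, had means of 2.68% and 8.92%. The coding form Tmem39a-214 had means of 5.39% and 5.35%. The first start, which holds Tmem39a-204 with 1458 coding bases, took 66.4% to 72.0% at 0 h and 44.5% to 51.3% at 48 h (adjusted p = 0.0742, limma), and the gene level was 176 to 194 TPM and then 78.1 to 96.4 TPM. The adjusted p of all 4 groups was close to the threshold. With 1 library left out 0 of them were called by limma, and with the default prior variance the smallest was 0.0558 and 1080 had an unadjusted p under 0.05.

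Among chromatin regulators, some start groups stood apart without passing. Kdm2b, which recruits Polycomb complexes to CpG islands, has a long form with a JmjC demethylase domain and a short form from an inner start. Its upstream start (chr5:122989092-122989306, minus strand) took 8.90%, 3.39%, 9.23% and 6.12% at 0 h and 27.3%, 22.5%, 29.6% and 15.2% at 48 h, and the inner start of Kdm2b-201 took 33.5% to 45.3% and then 21.4% to 31.6% (adjusted p = 0.225 and 0.314, limma). Dnmt3a is known for a long form and a short form from an inner promoter that ESCs favour. Its outer start at chr12:3807030-3807160 took 20.9% to 27.9% at 0 h and 13.8% to 18.5% at 48 h, and its inner start at chr12:3891728-3891744 took 63.4% to 72.1% and then 60.8% to 65.0%, which overlapped, while the gene went from 35.9 to 46.2 TPM to 254 to 312 TPM. The inner start thus led at both times (adjusted p = 0.314 and 0.565, limma). In Kdm4a, an H3K9 and H3K36 demethylase, the start of the full-length form took 39.6% to 58.9% and then 64.4% to 93.1% (adjusted p = 0.27, limma).

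The share of forms that keep introns did not overlap between the time points when averaged over genes. Averaged over the 6285 genes, the share of retained-intron transcripts was 7.06% and 6.66% in WT and 7.30% and 6.31% in KO at 0 h, and 7.88% and 8.0% in WT and 7.71% and 7.45% in KO at 48 h. The values did not overlap, and the mean difference was 0.927 points (exact permutation test of 4 against 4, two-sided, p = 0.0286, the smallest this design allows). Over the 4 transcript classes compared the adjusted p was 0.0571. As a share of the summed TPM of all these genes, where highly expressed genes weigh more, the time points overlapped, at 5.50%, 5.05%, 5.90% and 4.93% at 0 h and 6.05%, 5.93%, 5.69% and 5.54% at 48 h for retained-intron forms. The difference of the average over genes was 0.753 to 1.08 points with 1 library left out, 1.08 points in WT and 0.772 points in KO. The 24 h libraries lay at 6.49% to 7.24%, within the 0 h range. The share of protein-coding forms was 84.2% to 85.5% at 0 h and 83.0% to 84.1% at 48 h (exact permutation p = 0.0286, adjusted 0.0571), and it overlapped as a share of summed TPM, at 85.1% to 86.2% and 84.7% to 85.7%. The classes together make up nearly all of a gene's TPM, so this fall is not separate from the rise of retained-intron forms. The average over genes for processed transcripts was 4.73% to 5.30% and 5.11% to 5.47% (exact permutation p = 0.0857, adjusted 0.114). Forms marked for nonsense-mediated decay had means of 3.37% and 3.36% (exact permutation p = 0.800).

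Retained-intron forms were also read transcript by transcript, from the same values as the average, so this is not separate evidence. Of the 2602 retained-intron forms tested, 60.9% had a higher mean share at 48 h, with a median difference of 1.33 points, beside 49.6% and -0.04 points over all 19629. Of those with no overlap and 10 points or more, 63 were higher and 30 lower, beside 218 and 297 among protein-coding forms, 40 and 27 among processed transcripts and 18 and 18 among decay forms. By count the retained-intron forms were no more often in this set than the rest, 3.57% of those tested beside 3.62% of all.

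Splicing regulators are the genes whose products choose splice sites. In a list of 64 such genes, 51 were measured, and 45 of their 223 tested transcripts (20.2%, beside 6.93% of all) did not overlap, 30 higher and 15 lower, with 1 call, Srsf5-212. Their differences were small, with a median of 2.68 points beside 4.08 over all transcripts, and 6 (2.69%, beside 3.62%) reached 10 points without overlap. The median lowest TPM of their transcripts' genes was 132 beside 22.0 over all. Among all transcripts of genes at 100 TPM or more in every library 10.2% did not overlap, beside 5.49% in genes at 5 to 20 TPM. In that upper class 29 of 122 transcripts of splicing regulators (23.8%) did not overlap.

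Retained-intron forms made up 13 of those 45, and 12 of the 13 were higher at 48 h, beside 182 higher and 57 lower among all retained-intron forms with no overlap. Apart from Srsf5-212 none of the 13 passed the test. Srrm2-209, from a gene for a scaffold of nuclear speckles, had means of 10.0% and 19.3%, and Clk2-207, from a kinase gene for SR proteins, 5.85% and 14.5%. Son-213 and Son-214, from a second speckle scaffold gene, had means of 6.35% and 12.2% and of 4.13% and 8.94%. Srsf6-204 had means of 6.47% and 10.9%. The exception was Srrm2-207, at 6.30% and 4.96%. Among coding forms of the list, Luc7l-201 had means of 38.2% and 52.2%, Tra2b-201 of 38.8% and 48.0%, Ptbp1-202 of 19.7% and 26.5% and Srrm2-210 of 55.5% and 41.7%, with adjusted p-values of 0.227 to 0.344 by limma.

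**Figure D4:**
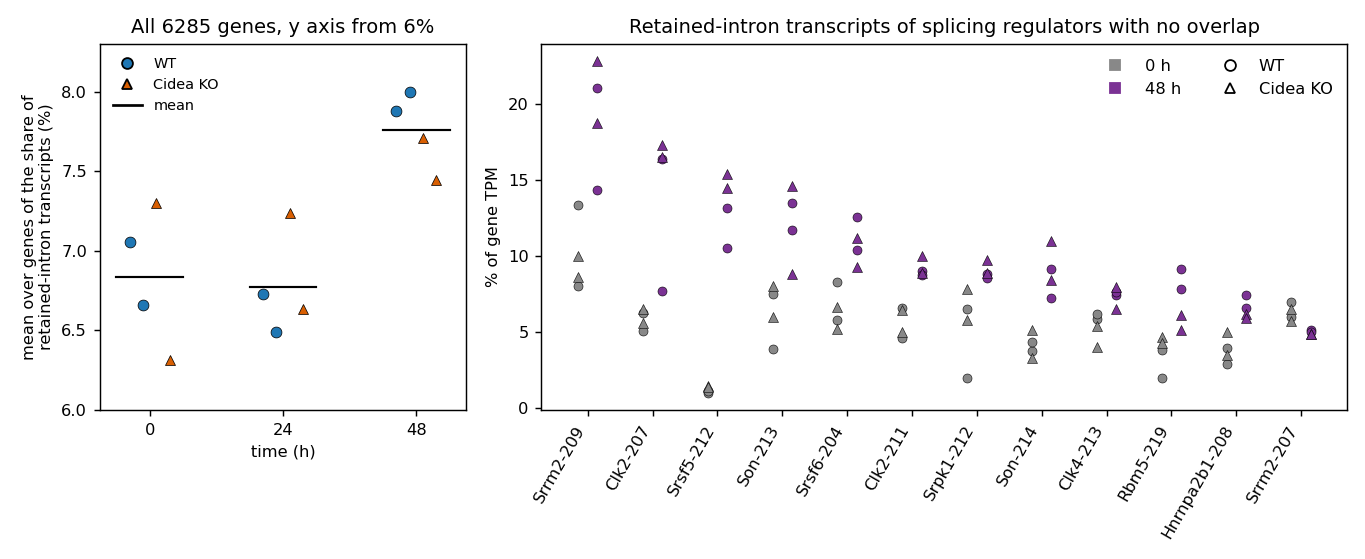
Left, mean over 6285 genes of the share of retained-intron transcripts (y axis, percent, starting at 6%) against time in hours, one point per library. Right, share in the gene's TPM (percent) of 12 retained-intron transcripts of splicing regulators with no overlap, grey for 0 h and purple for 48 h, circles WT and triangles Cidea KO. All 48 h libraries lay above all 0 h libraries on the left, and on the right 11 of the 12 transcripts were higher at 48 h.

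The other gene lists held few calls. Of 189 transcripts of genes known as epithelial or mesenchymal splicing targets, 23 (12.2%) did not overlap, 12 of them (6.35% of the list, beside 3.62% of all) with 10 points or more in 10 genes, and 0 were called by limma as transcripts, while the Enah exon was called as an exon. They included Itga6-205, a short noncoding form of the laminin receptor gene at 2.12% to 3.88% and then 10.1% to 21.4%, on 50.4 to 117 estimated counts at 48 h, and Cttn-201, a form of the gene for the actin branching regulator cortactin at 26.2% to 37.1% and then 10.0% to 22.2% (adjusted p = 0.0729 and 0.243, limma). Of 197 transcripts of chromatin and DNA methylation regulators 21 (10.7%) did not overlap, 12 (6.09%) with 10 points or more in 8 genes, and Suv39h1-204 was called. In the pluripotency and early epiblast list, 6 of 93 (6.45%) did not overlap, close to the 6.93% of all transcripts, and the 2 that reached 10 points were forms of Il6st, the gp130 receptor of LIF: the full-length Il6st-203 at 21.2% to 30.6% and then 11% to 18.1%, and the short fragment Il6st-205 at 0% to 11.7% and then 17.3% to 33.2%, on 12 to 21.4 estimated counts at 48 h (adjusted p = 0.405 and 0.343, limma).

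Polarity and junction genes (7 of 126, 5.56%), metabolic enzymes with paired isoforms (5 of 78, 6.41%) and lipid droplet, lipase and lysosome genes (7 of 95, 7.37%) lay near that share. None of the metabolic enzyme transcripts reached 10 points without overlap. In the lipid and lysosome list 3 did: Sqstm1-202, the full-length form of the autophagy receptor p62, at 71.1% to 77.8% and then 82.0% to 92.7%, Srebf2-201, the full-length form of a master regulator of sterol synthesis, at 60.6% to 66.0% and then 50.5% to 53.0%, and Tfe3-214, a fragment of the gene for a lysosomal transcription factor, at 0% to 14.2% and then 22.6% to 31.1% (adjusted p = 0.124, 0.303 and 0.243, limma).

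**Figure D5:**
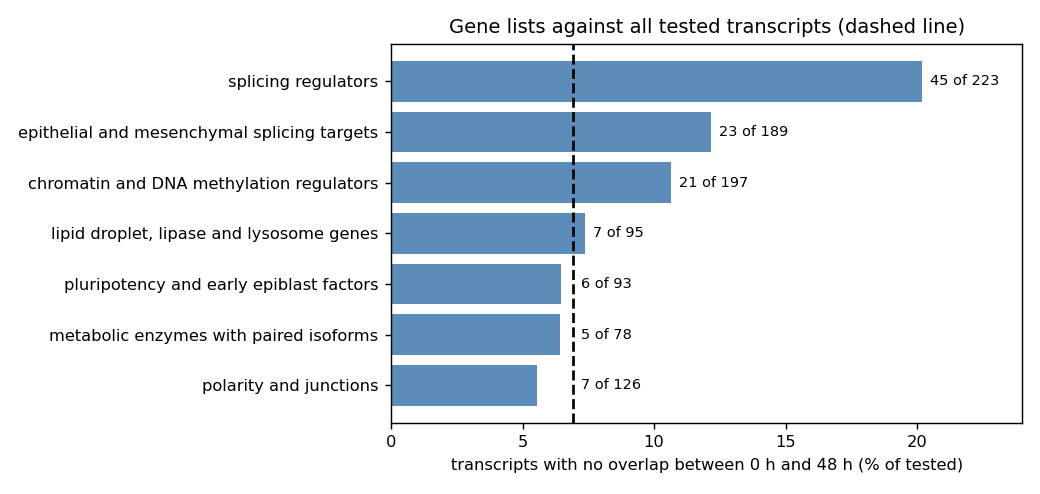
Percent of tested transcripts whose 4 shares at 48 h did not overlap the 4 at 0 h (x axis), for 7 gene lists, with the counts beside the bars and a dashed line at the 6.93% of all 19629 transcripts. The bar of splicing regulators reached 20.2% and that of polarity and junctions 5.56%.

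The form with the highest mean share differed between 0 h and 48 h in 667 of 6285 genes (10.6%), and in 29 of them both leading forms had no overlap and a difference of 10 points or more. Suv39h1, Pole4 and Wtap were among the 29, and in each of these genes the leader at 0 h was a shorter form than that at 48 h. Arhgap17, whose product acts at tight junctions, was another, with a 234-base coding exon at 49.7% to 75.4% at 0 h and 82.2% to 96.7% at 48 h (adjusted p = 0.344, limma). In 127 genes at least 1 form was higher and another lower by these limits. When the form with the largest rise in mean was set against that with the largest drop, 58 of the 127 pairs (45.7%) were coding with different coding sequences, 16 (12.6%) coding with the same one, 33 (26.0%) had a coding form lower and a noncoding form higher and 16 (12.6%) the reverse. Over 5497 genes, the pairs of leading forms were 53.6% coding with different coding sequences, 13.4% coding with the same one and 31.3% with 1 coding form, beside 49 (38.6%) of the 127 here. Starts lay more than 250 bases apart in 48.8% of the 127 pairs, beside 50.4% of those leading pairs, and ends in 54.3% beside 67.7%.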

How the data were processed

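RNA was sequenced as paired reads from stranded mRNA libraries, 12 in all, of which 8 enter the tests. The submitters' processing notes name Trimmomatic 0.33, kallisto 0.43.1 and the mouse build mm10; the transcript set is not given in the sources used here. The deposited tables hold TPM and estimated counts per transcript, the first scaled for transcript length and library size and the second the reads assigned to each transcript. Of 115270 transcripts, 98.5% matched GENCODE M21 by identifier, which supplied names, structures and sequences; those without a match took 0.533% to 0.614% of TPM.

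Ratios log2((transcript TPM + 0.5)/(other TPM of the gene + 0.5)) were tested with limma 3.58.1 (trend, robust, genotype as covariate, two-sided, Benjamini-Hochberg). The design named a trend without its covariate. The level of the smaller side was used in the first fit, and 5 other settings were added later, which are given in the closing section. Transcripts with a mean share of at least 5% were tested, exons and start groups between 5% and 95%. Estimated counts were rounded to whole numbers for edgeR 4.0.16. Shares inherit the uncertainty of assigning reads to overlapping transcripts, which the tables do not give.

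The members and lists were chosen with earlier results of these data known. Named genes were those with called transcripts (the 25 with the largest difference), list members with calls, and the 10 largest called exons and start groups. Other transcripts, exons and start groups of list genes, Wbp2, Lsm14b, Rtn4, Arhgap17 and the edgeR calls were chosen after their values were seen. The values of 1 retained-intron transcript are not reported here, though it is counted. The scripts were tested on simulated data.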

Additional observations from a re-analysis of the deposited data

Results flagged for a closer look

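In Glod4-204 the share in WT replicate 1 at 0 h was 0.900483%, while the other 3 libraries at 0 h were listed at 0, so this library stood apart from its group. It rests on at most 1.89 estimated counts. The 36 groups of 4 values checked came from called transcripts, exons and start groups and from the averages of the transcript classes. Of these 1 met the rule, and groups with all values equal could not. Chance flags about 1 in 20 groups of normally spread values, which does not apply to shares listed at 0.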

How the results depend on the processing

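Counts are given in the order transcripts called, transcripts switched by 10 points or more, and genes with one; the values reported are 9, 9 and 8, with 1 exon, 4 start groups and 0 interactions. Settings of the prior variance were added after the data were seen. By the mean log ratio, limma's default, the counts were 0, 0 and 0, with 0 exons and 0 start groups. Without the robust option they were 1, 1 and 1, with 0 exons and 3 start groups. With 1 prior variance for all they were 9, 9 and 8, and without the robust option 11, 11 and 10, each with 0 exons and 3 start groups. By the level of the smaller side without the robust option they were 8, 8 and 7, with 1 exon and 4 start groups. A pseudocount of 0.1 TPM gave 1, 1 and 1 with 0 start groups, and 1 TPM gave 3, 3 and 3 with 0 start groups. Leaving out 1 library at a time gave 1 to 1 transcripts, switched transcripts and genes, 0 to 1 exons and 0 to 0 start groups, and the transcript was Srsf5-212 each time. The 1 exon was called without KO replicate 2 at 0 h and was not the Enah exon. WT libraries only and KO libraries only gave 0 for transcripts, genes, exons and start groups. With no filter on the share there were 153, 34 and 29, and with a mean share of at least 10 percent 5, 5 and 4. With a summed TPM of 10 or more there were 3, 3 and 3, and with 50 or more (added after the data were seen) 5, 5 and 5. The untransformed share gave 3, 3 and 3, estimated counts in the ratio 16, 15 and 13, edgeR 18 and 14, and edgeR's F test per gene (added) 84 genes. Without a filter on inclusion or share, 7 exons and 13 start groups were called. The cause of these differences was not tested. Srsf5-212 stayed past the threshold in 20 of 25 alternatives, Cds2-202 in 11 of 26, Suv39h1-204 in 4 of 25 and the Enah exon in 4 of 19, and none of the called items changed direction. Of 76 named items that were not called, 1 reversed: Arhgef10l-201, whose log2 ratio was -1.38 to 0.0177 with 1 library left out (above 0 without WT replicate 1 at 0 h).

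Replicate numbers were used as a block (replicate block): 1, 1 and 1 were called, with 0 exons and 0 start groups. The numbers are not shown to pair the samples, since deviations of same-numbered libraries correlated at 0.0221 between 0 h and 48 h in WT and -0.0258 in KO, and at 0.0312 between WT and KO at 0 h and 0.000962 at 48 h.

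Shares of short fragments rest on few reads, as given beside them, and the spread of shares between libraries, 6.31 points at the median, limits which differences can pass.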

Other observations

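Among transcripts called by edgeR but not by limma, some had large differences of share. Evi5-202, from a gene for a Rab GTPase regulator, had means of 0.296% at 0 h and 21.1% at 48 h (edgeR adjusted p = 0.0151, limma 0.0729). C77080-201 had means of 28.7% and 3.73% (edgeR adjusted p = 0.0108, limma 0.138). Ccm2-202, from a gene of endothelial junction signalling, had means of 15.3% and 0.000248% (edgeR adjusted p = 0.00449, limma 0.0881), and Actn4-211, from an actin crosslinker gene, 2.87% and 9.25% (edgeR adjusted p = 0.00625, limma 0.266). Tbc1d25-202, a retained-intron form, was listed at 0 in the 0 h libraries and had a mean of 19.1% at 48 h (edgeR adjusted p = 0.00736, limma 0.367).

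Among genes in which both leading forms stood apart, Rreb1-207 had means of 37.2% at 0 h and 6.58% at 48 h, Lrrc8d-202 of 65.2% and 24.6%, Napepld-201 of 85.2% and 45.0%, and Gjc1-201, from a gap junction gene, of 51.1% and 25.7%. In another gene, Rps24-202, from a ribosomal protein gene, had means of 82.0% and 71.1% on a spread of 2.71 and 5.13 points (SD, n = 4), with an adjusted p of 0.138 by limma, and it led at both times. These were chosen after their values were seen.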
